A study of Homo sapiens with 4 samples.

Results

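The 10 alpha and beta tubulin genes described here are TUBB, TUBB2A, TUBB2B, TUBB3, TUBB4B and TUBB6 for beta tubulin and TUBA1A, TUBA1B, TUBA1C and TUBA4A for alpha tubulin. They were taken by symbol from a deposited table of 28277 genes, and all 10 passed the filter on low counts. The genes were selected on measured values of these same libraries, namely their counts and the spread of TUBB2B between replicates, so levels, shares and spread are given as a description, with no test. The libraries come from NCI-H520 cells labelled as wild type, an established line of squamous lung cancer. The Vehicle group is 2 libraries from cells given ultrapure water, and the Hx1R8 group is 2 libraries from cells given 10 µM Hx1R8. Both groups are labelled for 12 h. The series concerns self-association of SOX2 and drug resistance. Whether the replicates came from separate cultures is not stated, so a p-value here measures only how these libraries vary, which may be technical.

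Microtubules are polymers of heterodimers of alpha and beta tubulin. Vertebrate genomes hold several genes for each chain, and the isotypes they encode are nearly the same in the folded body of the protein and differ most in an acidic tail at the carboxyl end. The tail is where enzymes attach chains of glutamate and where motor and severing proteins bind. TUBB and TUBA1B are made in most dividing cells, TUBB2A, TUBB2B and TUBB3 are best known from neurons, and TUBB3 has been studied in lung cancer for its link with resistance to taxanes, drugs that bind beta tubulin. Cells also hold tubulin transcripts in check: when free tubulin is plentiful, TTC5 binds the start of the nascent chain on the ribosome and the transcript is degraded.

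The tails of the beta genes are shown because they are, in general, where the isotypes differ most. Each line below gives the final 60 coding bases before the stop codon, 5′ to 3′ on the coding strand, from the principal transcript of GENCODE release 29 (GRCh38), with the glutamate codons gaa and gag in capitals.
TUBB: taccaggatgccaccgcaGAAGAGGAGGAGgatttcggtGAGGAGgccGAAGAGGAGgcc
TUBB2A: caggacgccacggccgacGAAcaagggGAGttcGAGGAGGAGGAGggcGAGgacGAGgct
TUBB2B: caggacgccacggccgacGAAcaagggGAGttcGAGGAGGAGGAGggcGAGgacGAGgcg
TUBB3: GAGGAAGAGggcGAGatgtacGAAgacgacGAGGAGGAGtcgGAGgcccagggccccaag
TUBB4B: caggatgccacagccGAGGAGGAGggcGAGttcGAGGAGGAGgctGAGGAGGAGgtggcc
TUBB6: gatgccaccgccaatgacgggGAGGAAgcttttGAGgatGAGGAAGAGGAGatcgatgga
Among them TUBB4B has 10 glutamate codons in this window, TUBB and TUBB3 have 9, TUBB2A and TUBB2B have 8 and TUBB6 has 7. The tails of TUBB2A and TUBB2B differ in 1 base, in the last codon (gct against gcg). Both codons encode the same amino acid, so the tail does not tell this pair apart at the protein level.

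All of these windows lie in the final coding exon of their gene. On the forward strand are TUBB at chr6:30724335-30724394, TUBB3 at chr16:89935742-89935801, TUBB4B at chr9:137243494-137243553 and TUBB6 at chr18:12326068-12326127. On the reverse strand are TUBB2A at chr6:3153866-3153925 and TUBB2B at chr6:3224754-3224813. TUBB2A and TUBB2B are thus near neighbours on chromosome 6, and the 3 TUBA1 genes lie close together on chromosome 12.

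At the other end, the first 4 codons carry the stretch that TTC5 reads on the nascent chain. TUBB and TUBB4B begin with atgagggaaatc, TUBB3 and TUBB6 with atgagggagatc, TUBB2A with atgcgcgagatc and TUBB2B with atgcgtgagatc, and the 4 spellings encode 1 peptide. TUBA1A, TUBA1B and TUBA1C begin with atgcgtgagtgc and TUBA4A with atgcgtgaatgc, which again encode 1 peptide.

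TUBB2A and TUBB2B were the most alike pair among the members. Their coding sequences matched at 98.2% of 1335 bases, with 24 differing bases and a longest identical run of 725 bases. TUBA1A and TUBA1B matched at 97.2%, TUBA1B and TUBA1C at 96.8% and TUBA1A and TUBA1C at 95.9%, while all other pairs of the same family lay between 80.9% and 87.8%. Of all 100-base windows of the principal transcript, 43.6% of those of TUBB2A and 53.8% of those of TUBB2B occurred in no transcript of a gene at another locus. The share was 62.8% for TUBA1B, 84.3% for TUBA1A, 90.1% for TUBA1C, 94.9% for TUBB and for TUBB3, 97.1% for TUBB4B and 100% for TUBB6 and TUBA4A. With 150-base windows TUBB2A reached 50.6% and TUBB2B 60.6%. Read length and the treatment of reads that fit several places were not given in the sources used here. Levels of TUBB2A, TUBB2B and the TUBA1 genes are therefore uncertain, since reads may have been split among near-identical copies. The exons of TUBB are also listed on 7 alternate contigs, copies that the window count does not cover. Its level depends on the same unstated treatment of reads. TUBB4B, TUBB6 and TUBA4A share exon bases with a gene on the other strand (FAM166A, AFG3L2 and STK16), and 93.0%, 80.7% and 75.5% of their exon bases lie in no other listed gene.

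Total counts ranged from 17259403 to 20920857 per library, so a count of 3 corresponded to 0.143 to 0.174 CPM (read counts scaled to a common library size, with TMM factors), a limit that covers counting error only. Of 10 squamous markers SOX2 (498 to 541 CPM) and PERP were abundant, TP63 was at 0.400 to 0.716 CPM, KRT5 at 1.16 to 1.91 CPM, and KRT14 and DSG3 were at 0 in every library. Of 14 neuronal and neuroendocrine markers 6 were under 1 CPM on average, NEUROD1 and ELAVL4 had a single read each over all libraries, and CHGB and UCHL1 led. Their summed level lay between 1094 and 1105 CPM. The summed level of 10 fibroblast and endothelial markers was 10.0 to 11.5 CPM and that of 8 immune markers 2.27 to 3.58 CPM. No marker was called between the groups, against 0.0207% of all genes tested. Over all 14482 genes tested, 491 were at an unadjusted p under 0.05 by edgeR's quasi-likelihood test. Of 7 tested squamous markers 2 were, SFN and KRT6A. Their log2 fold changes were -0.22 (SE 0.08) and -0.18 (SE 0.09), each with an adjusted p of 0.9999.

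Among beta tubulins, TUBB, TUBB2B and TUBB2A made up most of the reads per length, TUBB4B came next, and TUBB3 and TUBB6 were minor. Levels between genes are compared as CPM per kilobase of exon on the primary chromosome. TUBB, the broadly expressed isotype, was at 478 and 503 CPM per kilobase in Vehicle and 477 and 485 in Hx1R8. TUBB2B (chr6:3224281-3227653, reverse strand) was at 357 and 480 CPM per kilobase in Vehicle and 424 and 358 in Hx1R8. TUBB2A was at 419 and 382 CPM per kilobase in Vehicle and 403 and 386 in Hx1R8. The ranges of TUBB and TUBB2B over the 4 libraries overlapped, but TUBB was above TUBB2B in each library on this scale. Those of TUBB2B and TUBB2A overlapped too, and their order changed between libraries, so it is not fixed by these data. TUBB4B, another widely expressed isotype, lay between 155 and 164 CPM per kilobase over the 4 libraries. TUBB3 lay between 45.8 and 48.0 CPM per kilobase and TUBB6 between 4.80 and 5.94. From TUBB2A downwards no ranges of neighbouring beta genes overlapped.

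Among alpha tubulins, TUBA1B stood far above the rest and TUBA4A was close to absent. TUBA1B was at 1163 and 1225 CPM per kilobase in Vehicle and 1166 and 1177 in Hx1R8, the highest level of the 10 genes, and by reads alone it was at rank 21 of all genes. TUBA1C lay between 180 and 197 CPM per kilobase and TUBA1A, an isotype abundant in developing neurons, between 119 and 128. TUBA4A was at 0.736 and 0.767 CPM per kilobase in Vehicle and 1.07 and 0.857 in Hx1R8, from 33, 34, 47 and 46 reads. No ranges of neighbouring alpha genes overlapped.

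**Figure D1:**
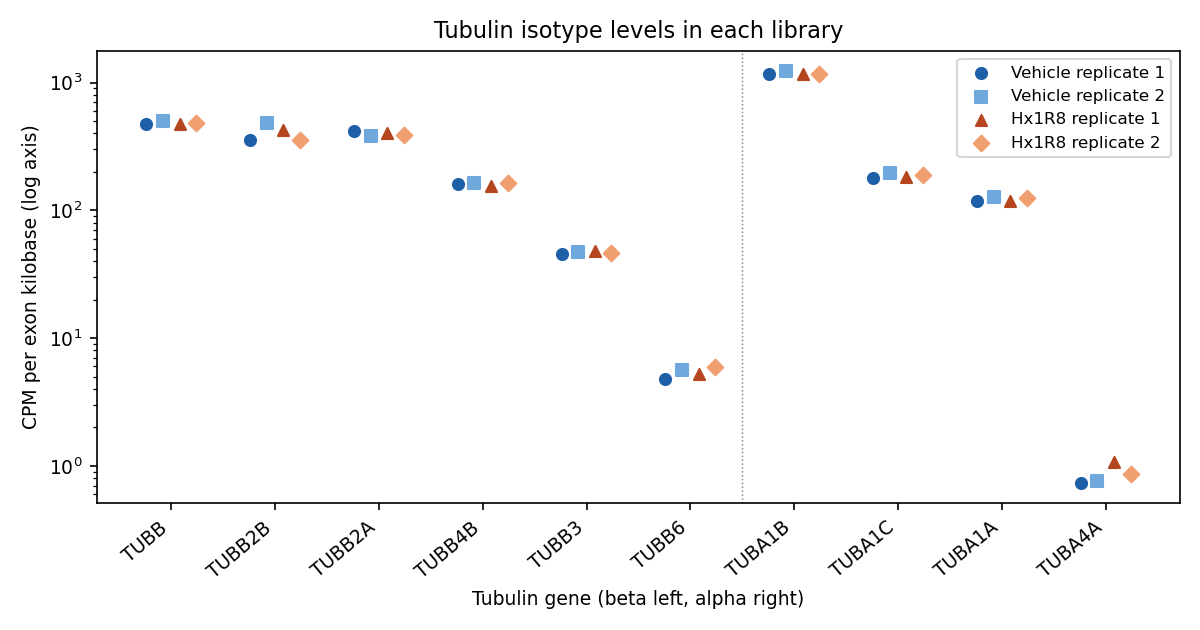
Level of each tubulin gene in CPM per exon kilobase on a log axis, 1 point per library, beta genes left of the dotted line and alpha genes right of it. TUBA1B lies between 1163 and 1225, TUBA4A between 0.736 and 1.07, and TUBB2B is the abundant gene whose points lie farthest apart.

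The isotype shares were close to equal in the 4 libraries for the alpha family, and in the beta family they differed most, in percentage points, for TUBB2B and TUBB2A. A share is a gene's reads per exon kilobase over the sum for the members of its family in the same library, so it needs no scaling between libraries. TUBB held 32.2% ± 0.59 of the beta total in Vehicle and 32.5% ± 1.44 in Hx1R8 (SD, n = 2 each). TUBB2B held 24.4% in Vehicle replicate 1, 30.4% in Vehicle replicate 2, 28.05% in Hx1R8 replicate 1 and 24.8% in Hx1R8 replicate 2. TUBB2A held 28.6% and 24.1% in Vehicle and 26.6% and 26.7% in Hx1R8. TUBB2B was therefore above TUBB2A in Vehicle replicate 2 and Hx1R8 replicate 1 and below it in the other libraries. TUBB4B held 10.3% to 11.3%, TUBB3 2.98% to 3.19% and TUBB6 0.328% to 0.411% over the 4 libraries. In the alpha family TUBA1B held 79.3% ± 0.37 in Vehicle and 79.2% ± 0.32 in Hx1R8, TUBA1C 12.5% ± 0.28 and 12.5% ± 0.18, and TUBA1A 8.17% ± 0.09 and 8.22% ± 0.15 (SD, n = 2 each). With 2 libraries a group an exact permutation test cannot go below p = 0.333, so no test of shares was made. Which beta gene led depended on the length used: divided by unique 100-base windows, a choice made after seeing the data, TUBB2A held 40.6%, TUBB2B 28.6% and TUBB 21.8% on average.

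**Figure D2:**
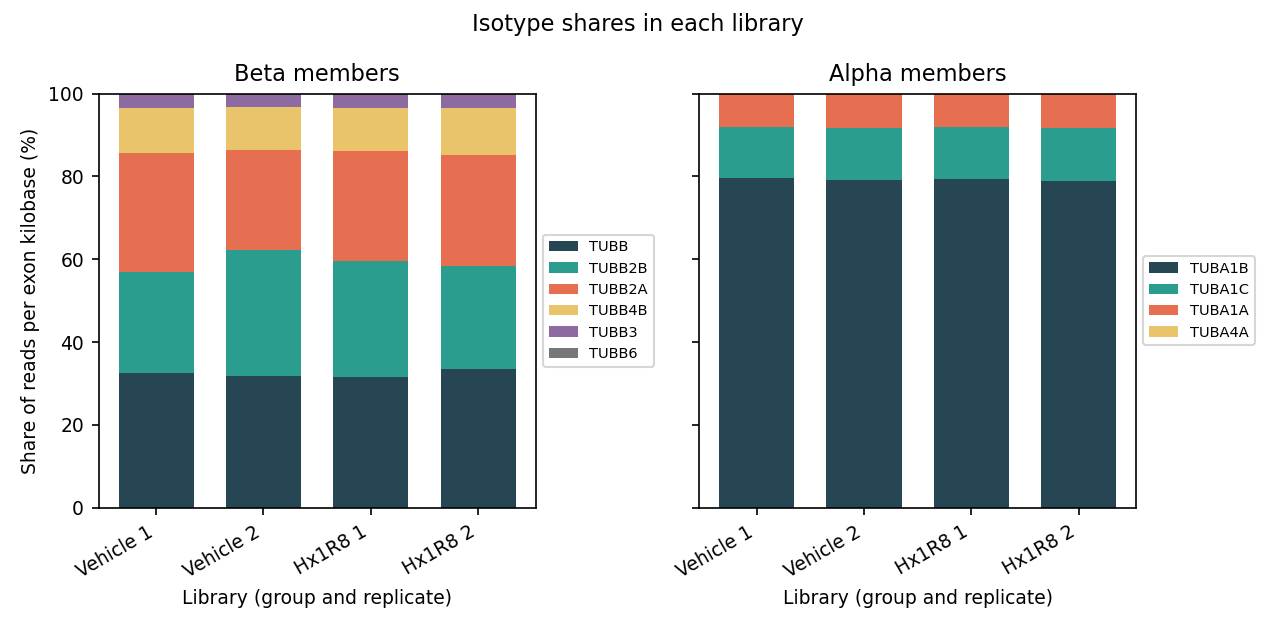
Share of each isotype in percent of the reads per exon kilobase of its family, 1 stacked bar per library, beta genes left and alpha genes right. TUBB2B takes 24.4% to 30.4% of the beta total, and TUBA1B takes 79.0% to 79.5% of the alpha total.

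TUBB2B was far more variable between libraries than other genes of its level, inside both groups. It was at 684 and 921 CPM in Vehicle and at 813 and 687 CPM in Hx1R8, from 11976, 15926, 14002 and 14392 reads. Vehicle replicate 2 was highest, Hx1R8 replicate 1 second, and the remaining libraries of each group lay together at the low end, so the groups overlapped. Between the Vehicle libraries the ratio was 1.35 (95% counting interval 1.31 to 1.38), and between Hx1R8 replicates 1 and 2 it was 1.18 (1.16 to 1.21). Of the 348 other tested genes within 2-fold of its mean level, 0 had Vehicle libraries as far apart and 1 had Hx1R8 libraries as far apart, and their median ratios were 1.05 and 1.02. Widened to the 2495 other genes with a mean of at least 100 CPM, 0 differed as much between the Vehicle libraries and 8 as much between the Hx1R8 libraries as TUBB2B did there. Over all 4 libraries only IFI27 and RPS27, an interferon-inducible gene and a ribosomal protein gene, had a highest to lowest ratio as large (1.46 and 1.44), against 1.35 for TUBB2B. These counts describe the spread for which TUBB2B was chosen and are no test.

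Every other member except the scarce TUBA4A had a smaller ratio. The highest to lowest ratio was 1.099 for TUBB2A, 1.09 for TUBA1C, 1.08 for TUBA1A, 1.06 for TUBB and 1.05 for TUBA1B, TUBB4B and TUBB3. For TUBB6 it was 1.24 and for TUBA4A 1.45, at 17.9 and 2.19 CPM on average, where 11.0% and 39.4% of genes of similar level had ratios at least as large. From Vehicle replicate 1 to Vehicle replicate 2 TUBB2B differed by 236 CPM, while TUBB2A, its near-identical neighbour, differed by -65.9 CPM. The sum of both genes was 1417 and 1588 CPM in Vehicle and 1517 and 1361 CPM in Hx1R8, a range of 1.17-fold, so the sum varied too. The ratio of TUBB2B to TUBB2A per kilobase was 0.851 and 1.26 in Vehicle and 1.05 and 0.929 in Hx1R8. What part the splitting of shared reads had in this was not tested. Without TUBB2B, the summed beta level was 1108 and 1101 CPM per kilobase in Vehicle and 1088 and 1086 in Hx1R8, a range of 1.02-fold. The ratio of alpha to beta members per kilobase was 0.999 and 0.981 in Vehicle and 0.971 and 1.03 in Hx1R8. That ratio depends on the exon lengths used. Without division by length, the alpha members summed to 2781 to 2960 CPM a library and the beta members to 3120 to 3400 CPM.

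The genes whose pattern over the 4 libraries was nearest to that of TUBB2B were not alpha or beta tubulins. Ranked by Euclidean distance of centred log2 CPM among 9640 genes of at least 10 CPM, the nearest were CST1, JAM3, DHRS7B, TMEM268 and FAM98C, at distances of 0.0881 to 0.116. The Vehicle libraries held CST1, a cystatin protease inhibitor, at 93.0 and 122 CPM, and the Hx1R8 libraries at 104.5 and 95.7 CPM. For JAM3, a junctional adhesion molecule, Vehicle was at 12.9 and 17.1 CPM and Hx1R8 at 15.9 and 13.8 CPM. The 8 other members of at least 10 CPM stood at places 1564 to 7334 of this ranking, TUBA1C nearest and TUBB2A farthest. A likeness over 4 libraries is a description only.

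**Figure D3:**
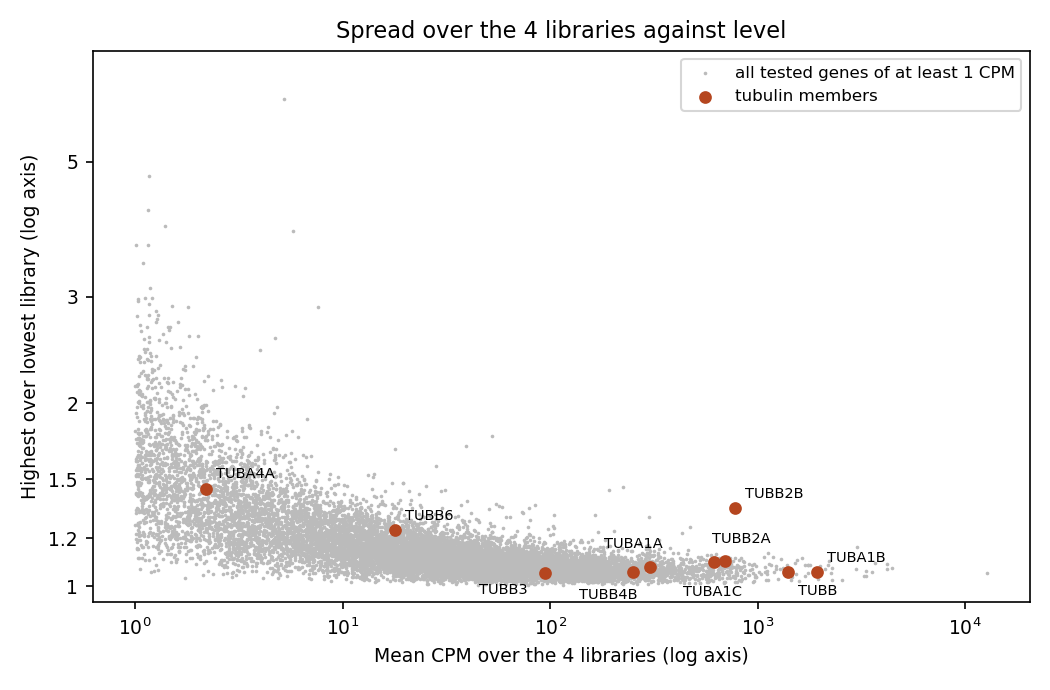
Ratio of the highest to the lowest library against mean CPM, both on log axes, for all tested genes of at least 1 CPM (grey) and the tubulin genes (orange). TUBB2B, at 776 CPM and a ratio of 1.35, lies above the grey band, while TUBB2A, TUBA1A, TUBA1B, TUBA1C, TUBB, TUBB3 and TUBB4B lie inside it.

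After Hx1R8 no tubulin gene passed the threshold, and the intervals of the abundant isotypes were narrow. By edgeR's quasi-likelihood test over 14482 genes, 0 of 10 members were called at an adjusted p of 0.05, against 0.0207% of all genes tested (3 genes). In each direction it was 0 members, against 0.0138% of all genes called higher (2 genes) and 0.00691% called lower (1 gene). Of the members 0 were at an unadjusted p under 0.05, against 491 of the 14482 genes tested. DESeq2 and limma-voom also called 0 members. The adjusted p was 0.9999 for each member. TUBA1B, 1941 ± 71.2 CPM in Vehicle and 1904 ± 12.1 in Hx1R8 (SD, n = 2 each), had a log2 fold change of -0.03 (SE 0.05), and the 95% interval of its fold ran from 0.920 to 1.05. TUBB, 1407 ± 50.6 and 1379 ± 16.2 CPM (SD, n = 2 each), had the same log2 fold change of -0.03 (SE 0.05), with the fold between 0.919 and 1.05. TUBB2A was at -0.02 (SE 0.05), TUBB4B at -0.02 (SE 0.05), TUBA1A at -0.02 (SE 0.05) and TUBA1C at -0.03 (SE 0.05). For TUBB3, the isotype linked with taxane resistance, Vehicle was at 92.8 and 95.3 CPM and Hx1R8 at 97.4 and 93.5 CPM, so the groups overlapped. Its log2 fold change was 0.02 (SE 0.05), and the interval of its fold ran from 0.941 to 1.09.

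The 2 scarcest members had the largest standard errors in this fit. The Vehicle libraries held TUBB6 at 15.9 and 18.6 CPM and the Hx1R8 libraries at 17.4 and 19.7 CPM, with a log2 fold change of 0.11 (SE 0.10). For TUBA4A, Vehicle was at 1.89 and 1.97 CPM and Hx1R8 at 2.73 and 2.20 CPM. Its log2 fold change was 0.34 (SE 0.24), and the interval of its fold, 0.908 to 1.76, includes no change. Groups did not overlap for 1 member of 10, TUBA4A, against 29.8% of all genes tested. Its Hx1R8 libraries were the higher ones, as for 14.7% of all genes, and 0 members lay the other way, against 15.2%. For 9 of 10 members the fold's 95% interval stayed inside 1.5-fold, as for 81.4% of all genes, and for 8 of 10 members inside 1.2-fold, as for 57.6% of all genes. TUBB2B is among the 8 by this fit (SE 0.07), but its standard error was 0.21 with DESeq2 and 0.23 with robust dispersions, too wide for the 1.2-fold bound. The median log2 fold change was -0.02 over the members and -0.0018 over all genes.

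For TUBB2B the sign of the difference turned with the library left out, in either group. With all libraries Vehicle averaged 803 ± 167 CPM and Hx1R8 750 ± 89.5 CPM (SD, n = 2 each), a log2 fold change of -0.10 (SE 0.07) that is smaller than the spread inside each group. Without Vehicle replicate 1 the log2 fold change was -0.30, past the threshold by edgeR's quasi-likelihood test (adjusted p = 7.2e-18). Without Vehicle replicate 2 it was 0.13, past the threshold in the opposite direction (adjusted p = 0.034). Leaving out Hx1R8 replicate 1 gave -0.22 and leaving out Hx1R8 replicate 2 gave 0.02, neither past the threshold. Over all alternatives the adjusted p ran from 7.2e-18 to 0.9999, and the 2 calls came only from settings with 1 Vehicle library. In these settings the lone Vehicle library is assumed to vary like the Hx1R8 group.

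**Figure D4:**
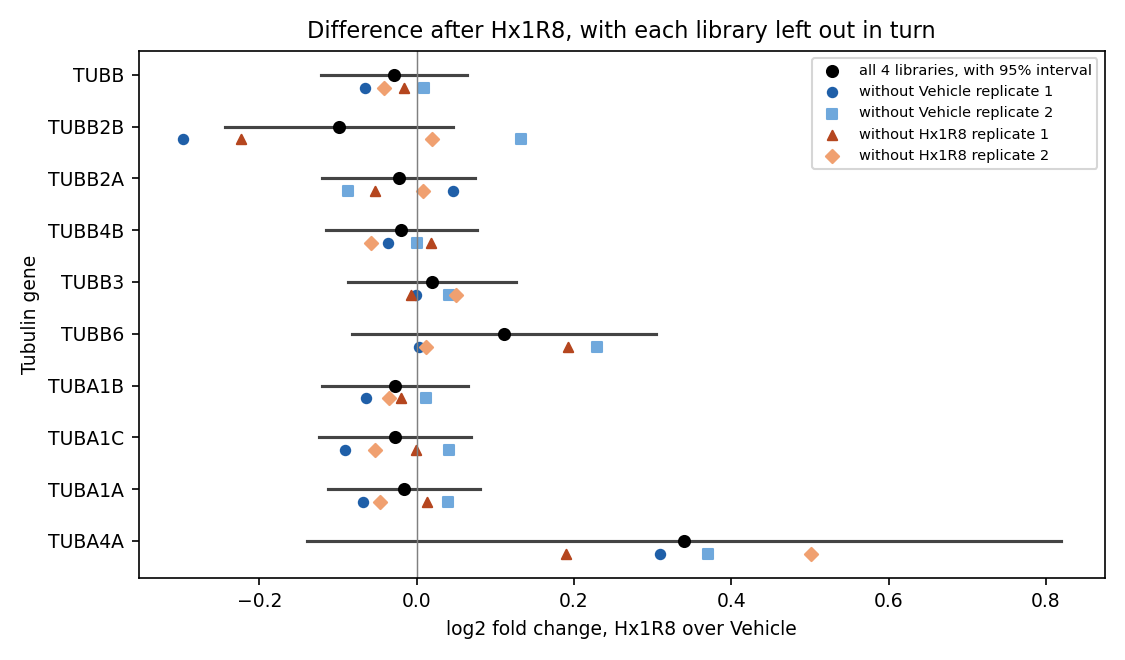
log2 fold change of Hx1R8 over Vehicle for each tubulin gene, with all 4 libraries (black points with 95% intervals) and with each library left out (coloured symbols below them). For TUBB2B the values run from -0.30 without Vehicle replicate 1 to 0.13 without Vehicle replicate 2, on both sides of 0.

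Genes that fold, modify and organise tubulin had no member past the threshold either. Over all 14482 genes tested 0.0207% were called (3 genes), so a count of 0 in lists this short is near that share. At an unadjusted p under 0.05 were 491 of all genes tested. Of 12 tubulin genes outside the 10, 8 were tested and 0 were called, with TUBA8 at an unadjusted p under 0.05 (log2 fold change -0.74, SE 0.31, at 1.26 CPM, adjusted p = 0.9999). TUBG1, the gamma tubulin that nucleates microtubules, was at 126 ± 3.64 CPM in Vehicle and 121 ± 2.15 in Hx1R8, and TUBD1 and TUBB4A were at 27.2 ± 0.35 and 25.4 ± 1.05 CPM in Vehicle (SD, n = 2 each). TUBAL3 and TUBA3C were at 0 in every library. Of 22 tested folding genes, which include the CCT chaperonin, prefoldin and the tubulin cofactors, 0 were called. TBCC, a tubulin cofactor, was at an unadjusted p under 0.05 by edgeR's quasi-likelihood test (log2 fold change -0.24, SE 0.10, adjusted p = 0.9999). The CCT subunits led this list, with CCT3 at 735 ± 16.2 CPM and TCP1 at 640 ± 13.9 CPM in Vehicle (SD, n = 2 each), and log2 fold changes of 0.01 (SE 0.05) and 0.03 (SE 0.05). CCT6A was at 0.03 (SE 0.05). The intervals of all 22 folding genes stayed inside 1.5-fold, but those of only 5 of 8 other tubulins did, against 81.4% of all genes tested.

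The 3 autoregulation genes were all at low to moderate level and none was called, against 0.0207% of all genes tested. All 3 had intervals within 1.5-fold, and 0 were at an unadjusted p under 0.05. TTC5, which recognises the start of the tubulin chain, averaged 13.5 ± 0.96 CPM in Vehicle and 13.9 ± 0.77 in Hx1R8 (SD, n = 2 each), with a log2 fold change of 0.04 (SE 0.10). CNOT11, the subunit that links it to the deadenylase, was at 0.02 (SE 0.05) and SCAPER, the adaptor between them, at 0.07 (SE 0.10). Of 22 tested modification genes 0 were called, against 0.0207% of all genes, and 21 had intervals within 1.5-fold, against 81.4% of all genes. KIAA0895L, also named MATCAP1, is a protease that removes the end tyrosine of alpha tubulin. It was at an unadjusted p under 0.05 by edgeR's quasi-likelihood test (log2 fold change -0.17, SE 0.07, adjusted p = 0.9999). TTL, the ligase that restores the tyrosine at the end of alpha tubulin, led at 229 ± 3.60 CPM in Vehicle and 232 ± 2.63 in Hx1R8 (SD, n = 2 each), with a log2 fold change of 0.02 (SE 0.05). TTLL12 was at -0.03 (SE 0.05) and TPGS2, a subunit of the polyglutamylase complex, at 0.05 (SE 0.05).

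Microtubule regulators and the nucleating complex also had no gene past the threshold, against 0.0207% of all genes tested. Of 34 tested regulators 0 were called, 0 were at an unadjusted p under 0.05, and all 34 had intervals within 1.5-fold. Over all genes tested 81.4% had intervals that narrow. MAPRE1, which tracks growing ends, was at 571 ± 5.12 CPM in Vehicle and 582 ± 5.92 in Hx1R8 (SD, n = 2 each). CKAP5, a microtubule polymerase, had a log2 fold change of 0.03 (SE 0.05) and KIF2C, a depolymerising kinesin, of -0.03 (SE 0.05). Of 12 genes of the gamma tubulin ring complex and its adaptors 0 were called, 0 were at an unadjusted p under 0.05, and all 12 had intervals within 1.5-fold, with MZT2B at 0.05 (SE 0.05), CDK5RAP2 at -0.03 (SE 0.05) and NEDD1 at 0.02 (SE 0.05). Median log2 fold changes were -0.07 for other tubulins, 0.02 for folding, 0.04 for autoregulation, 0.0025 for modification, -0.0015 for regulators and 0.0059 for the ring complex. Groups did not overlap for 5 of 8 other tubulins, 5 of 22 folding genes, 0 of 3 autoregulation genes, 3 of 22 modification genes, 10 of 34 regulators and 4 of 12 ring complex genes, against 29.8% of all genes. No gene of these lists was called under any alternative that was run.

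**Figure D5:**
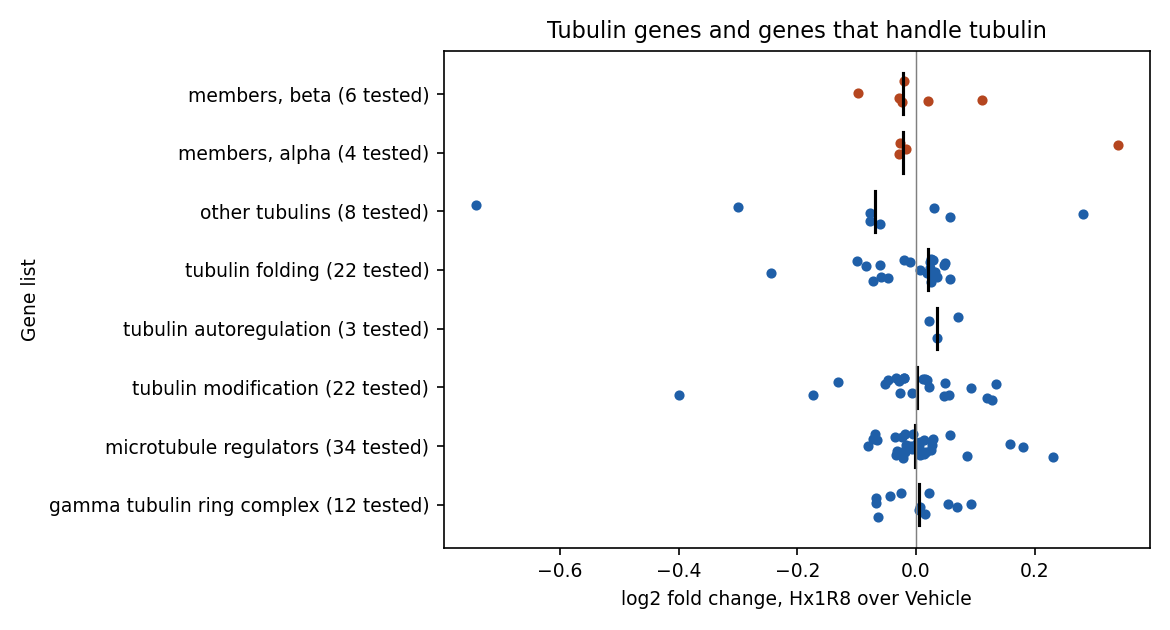
log2 fold change of Hx1R8 over Vehicle for each tested gene of the tubulin lists, 1 point per gene (spread vertically at random for legibility), with the median of each list as a black bar. The medians lie between -0.07 and 0.04, and the point farthest from 0 is TUBA8 at -0.74.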

How the data were processed

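RNA sequencing measured gene expression in 4 libraries. The authors deposited raw counts per gene, 1 column per library, with exon coordinates and a summed exon length. Alignment used STAR 2.7.9 and hg38, per the submitters' processing notes. Strand setting, counting tool, annotation and read length were not given in the sources used here. Left out were the 2 lines of 1 broken row (no readable counts), leaving 28277 genes. There were 0 rows without a gene name.

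Differences came from edgeR 4.0.16 under R 4.3.3 (quasi-likelihood test, TMM factors from 0.998 to 1.00, filterByExpr, group as the only term, two-sided, Benjamini-Hochberg adjustment over 14482 genes, threshold 0.05). Standard errors and intervals come from that fit. In simulated counts for this comparison over 14335 genes, changes of 1.2-fold were recovered for 46% of genes and of 1.5-fold for 82%. Recovery was 92% at 2-fold and 100% at 4-fold, beside 3 unchanged genes called. These counts were simulated with less dispersion than was fitted to the data. The changed genes were drawn only from those above a minimum mean count. The rates may therefore be higher than in the real libraries, and an absent call does not show an absent change. Each pair of libraries differed by more than counting noise (chi-square divided by the number of genes, 1.48 to 2.96). The Vehicle pair differed most.

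Exon length was merged on the primary chromosome, because the deposited length of TUBB also sums 7 alternate contigs. Coding sequences came from GENCODE 29 transcripts on GRCh38 (Biopython 1.88). Alternatives covered other scaling factors, filters, DESeq2 1.42.0, limma-voom 3.58.1, robust dispersions, a block for the replicate number and each library left out. The members and gene lists were chosen with earlier results of these data known. Beside the members, the text names the 3 most abundant genes of each list, any called member of a list, and the 5 genes nearest to TUBB2B in pattern. Markers, IFI27, RPS27, TUBA8, TBCC, KIAA0895L, TUBAL3 and TUBA3C were named after their values were seen.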

Additional observations from a re-analysis of the deposited data

How the results depend on the processing

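Over the 9 alternatives that kept all libraries, every member kept its sign and 0 members were called. Genes higher over all genes were 2, and 1 with DESeq2 and with robust dispersions, the cause not tested. With 1 library left out, genes higher ran from 2 to 41 and genes lower from 1 to 38, most without Vehicle replicate 1, and 0 to 1 members were called, the 1 being TUBB2B without either Vehicle library. Signs turned in 13 of 40 such values, all small except for TUBB2B: the log2 fold change ran from -0.30 to 0.13 for TUBB2B, -0.065 to 0.010 for TUBB, -0.088 to 0.046 for TUBB2A, -0.0071 to 0.050 for TUBB3, -0.059 to 0.019 for TUBB4B, -0.068 to 0.040 for TUBA1A, -0.065 to 0.012 for TUBA1B and -0.091 to 0.041 for TUBA1C. TUBB6 (0.0035 to 0.23) and TUBA4A (0.19 to 0.50) kept theirs. With the replicate number as a block TUBB2B was at -0.09 and 0 members were called. Same-numbered deviations correlated at 0.03 across genes. Whether same-numbered libraries shared a culture or a preparation is not stated, and this correlation cannot settle it. Average shares moved with the length used. Without division by length TUBB held 43.2%, TUBB2B 24.0% and TUBA1B 67.6%. With the deposited lengths TUBB held 5.65% and TUBB2B 37.5%, with the principal transcript's length TUBB 33.5% and TUBA1B 76.4%, and with unique 100-base windows TUBB 21.8% and TUBA1B 82.2%, these 3 lengths being chosen after seeing the data. Depth limits statements on TUBA4A, which had 33 to 47 reads a library.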

Other observations

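The standard error of the TUBB2B difference depended on the tool more than its size did. The log2 fold change of TUBB2B was -0.10 with edgeR's quasi-likelihood test, DESeq2 and robust dispersions, while its standard error was 0.07, 0.21 and 0.23, and limma-voom gave -0.09 with a standard error of 0.07. For TUBB all 3 gave a log2 fold change of -0.03, with standard errors of 0.05, 0.04 and 0.05.

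TUBB carried 23542 to 29136 reads a library, and its exons are also listed on 7 alternate contigs. Its deposited exon length was 22953 bases, of which 2869 lie on chromosome 6.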
